A study of Mus musculus with 30 samples.

Results

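Vesicle transport and secretory pathway genes were followed in AtT-20 cells, a corticotrope line grown from a mouse pituitary tumour, during 24 h of treatment with corticotropin-releasing hormone (CRH). They were chosen by the deposited spot name, which had to begin with RAB, SEC, coatomer, ADP-ribosylation factor, syntaxin, vesicle, golgi, signal sequence receptor, signal recognition particle, adaptor protein complex or adaptor-related protein complex, or sorting nexin. Names beginning with rabphilin, secretogranin, secretory granule, secreted, secretin or secretory leukocyte were left out. The rule found 222 of the 24192 spots of the array, which carried 140 different names. Of these 222 spots, 147 with 106 names gave a signal above the lowest 10 percent in both channels of all 30 arrays, and these 147 are the measured members below. The name rule also took in 7 names (10 spots, of which 5 were measured) that were counted here as outside the vesicle transport machinery. They are antisense transcripts of coatomer gamma 2, 3 secretoglobins, the calcium-binding protein secretagogin, the lipid-binding protein Sec14l2 and a blood group enzyme.

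At each of 5 time points (1, 3, 6, 12 and 24 h) cells treated with 100 nM human/rat CRH were set against untreated cells harvested at the same hour, and both had been deprived of serum for 18 h before. Each time point had 6 two-colour arrays of spotted cDNA, 3 with the CRH sample in Cy3 and 3 with it in Cy5. The 6 arrays are technical replicates, so that the spread between them measures labelling and hybridisation and not the variation between cultures. Only the 5 time points can therefore be counted as independent. Every value below is a log2 ratio, CRH-treated over untreated cells on the same array, after print-tip loess normalization, and a positive value means a higher signal in CRH-treated cells. A mean at a time point is taken over the 6 arrays, and its SD over the same 6 arrays.

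Proteins that leave the cell, among them the ACTH precursor of corticotropes, are led to the endoplasmic reticulum by the signal recognition particle and enter it through the Sec61 channel, beside which sits the signal sequence receptor (SSR) complex. COPII coats, built from Sec23, Sec13 and their partners, carry cargo to the Golgi, and the COPI coat (coatomer), recruited by ARF GTPases, returns proteins from the Golgi to the endoplasmic reticulum. Adaptor complexes select cargo for clathrin-coated and related vesicles, Rab GTPases give each vesicle its identity, SNARE proteins such as syntaxins drive fusion, and sorting nexins act on endosomes. CRH releases ACTH from corticotropes and raises cAMP in them, and cAMP acts on genes through the cAMP response element (CRE).

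The promoters of 4 members called for change over time are shown because each holds at least a CRE half-site. A half-site also stood in the promoters of Ap1g1, Vat1 and Ssr4, which were not called. A link between the motif and the ratios was not tested. The RefSeq windows (GRCm38.p6) run from 250 bases before to 50 bases from the start of the gene, on the strand of the gene. The window of Ssr1 held no match of any motif searched, and that of Ssr2 was not searched here. Capitals mark the full CRE (TGACGTCA) or the half-site (TGACG, or its reverse complement). The window of Arf4 is chr14:26637884-26638183 (plus strand), that of Cope chr8:70302517-70302816 (plus strand), that of Copz1 chr15:103272638-103272937 (plus strand) and that of Ap2m1 chr16:20535230-20535529 (plus strand).
Arf4: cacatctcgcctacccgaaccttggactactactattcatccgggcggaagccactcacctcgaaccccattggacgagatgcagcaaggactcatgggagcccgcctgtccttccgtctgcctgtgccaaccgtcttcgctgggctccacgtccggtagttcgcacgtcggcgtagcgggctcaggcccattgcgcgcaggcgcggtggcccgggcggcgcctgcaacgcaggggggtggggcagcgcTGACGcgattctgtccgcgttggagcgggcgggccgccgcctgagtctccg
Cope: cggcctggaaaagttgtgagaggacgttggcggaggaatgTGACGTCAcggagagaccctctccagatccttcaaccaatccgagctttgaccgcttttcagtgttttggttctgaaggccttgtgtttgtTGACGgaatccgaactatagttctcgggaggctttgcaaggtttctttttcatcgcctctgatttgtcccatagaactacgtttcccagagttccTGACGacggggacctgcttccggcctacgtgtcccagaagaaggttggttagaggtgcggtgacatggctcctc
Copz1: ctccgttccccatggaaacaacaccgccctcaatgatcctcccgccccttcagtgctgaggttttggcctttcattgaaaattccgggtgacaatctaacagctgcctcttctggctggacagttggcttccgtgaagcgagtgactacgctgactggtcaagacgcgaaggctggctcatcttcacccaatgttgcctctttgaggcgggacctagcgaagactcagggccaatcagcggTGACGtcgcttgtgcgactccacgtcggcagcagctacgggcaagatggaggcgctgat
Ap2m1: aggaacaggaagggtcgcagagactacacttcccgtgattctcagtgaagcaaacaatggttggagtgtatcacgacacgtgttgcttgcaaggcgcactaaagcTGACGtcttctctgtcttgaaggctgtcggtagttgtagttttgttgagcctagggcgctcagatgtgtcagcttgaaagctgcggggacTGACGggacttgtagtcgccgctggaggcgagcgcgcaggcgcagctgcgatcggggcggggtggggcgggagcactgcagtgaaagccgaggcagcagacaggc

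A full CRE was found in the Cope window, which holds 4 half-sites when those inside the full element are counted, and only half-sites in those of Arf4 (1), Copz1 (1) and Ap2m1 (2). Of the 104 measured genes with a symbol, 89 had at least one RefSeq window of the full 300 bases. A half-site on either strand stood in the windows of 49 of these 89 genes (55.1%), against 23% of all 27025 genes in the table, which includes many that are not protein-coding. The full CRE stood in 6 of the 89 (6.74%, namely Ap2b1, Cope, Golph3, Gosr2, Rab25 and Stxbp3), against 2.03% of all genes. Of the elements of the unfolded protein response, the core TGACGTGG, which itself contains a CRE half-site, stood in 5 of the 89 (5.62%: Arf1, Copb1, Copb2, Sec23a and Stx5a), against 0.714% of all genes, and the longer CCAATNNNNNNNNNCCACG in none, against 0.137%. The NBRE (AAAGGTCA), which is bound by Nur77 and its relatives, stood in 1 of the 89, that of Rabggtb, against 1.7% of all genes. All motifs were searched on both strands, and these are matches of letters and not bound sites.

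The arrays and the line were checked first. The median signal of a channel lay between 482 and 2175 units on the 30 arrays, and the median SD over the 6 arrays of a time point was 0.27 to 0.35 for all measured spots and 0.26 to 0.34 for the members. Of 7 corticotrope markers, 5 had a measured spot (Pomc, Tbx19, Neurod1, Cpe and Pitx1), and Crhr1 and Pcsk1 were not matched by name here. Of the markers of other cell types, 3 of 4 fibroblast genes and 2 of 4 leukocyte genes were also measured, with mean ratios from -0.28 to 0.51 and from -0.38 to 0.60. Of 7 markers of other pituitary lineages only Gh was matched by name, and it was measured, with -0.21 to 0.10. The other markers of these lineages could not be checked. A spot of cDNA can bind related transcripts, and the part of such signals in the results below was not tested. The image files were quantified on 4 days: 3 and 6 h shared a day, 1 h had a day of its own, and 12 h was divided between a day of its own and that of 24 h.

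No member passed the test of a CRH effect common to the 5 time points (limma on the 5 averages, Benjamini-Hochberg adjusted p under 0.05), where 8 of all 14375 measured spots (0.0557%) did, 0.0487% being higher and 0.00696% lower. At an unadjusted p under 0.05, 9 members were higher in CRH-treated cells (2.91% of all spots were) and 3 lower (2.47% of all spots), that is 12 of 147 (8.16%) against 5.38% of all spots. The 9 were Ap1g1, Vat1, Rab11b, Ssr1, Ssr2, Sec61a1, Acbd3, Gga3 and Snx5, each with 1 spot, and the 3 lower were spots of Arf3, Ap1s2 and the signal recognition particle. A trend with the logarithm of time was likewise not called for any member or any other spot (0% of 14375 by limma). At an unadjusted p under 0.05 the trend was upwards in 16 members (3.85% of all spots) and downwards in 4 (3.3% of all spots), or 13.6% together, against 7.15% of all spots.

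A change of the ratio between time points was called in 6 members (limma F test over the 30 arrays with a term for dye, adjusted p under 0.05). The test left out the 20 members whose time course differed between the dye orientations (p under 0.01 in 13.6% of members, against 14.8% of all spots), so that 127 members were tested. The 6 calls are 4.72% of these, against 3.11% of the 12249 spots tested, and at an unadjusted p under 0.01 there were 10 (7.87%, against 7.9% of all spots). They were 3 spots of the COPI and ARF class (Arf4, Copz1 and Cope), 2 of the SSR complex (Ssr1 and Ssr2) and 1 of the adaptor complexes (Ap2m1). In 5 of the 6 the lowest of the 5 means was at 1 h, which makes 3.94% of the members tested, against 1.61% of all spots tested (197) that were called with their lowest mean at 1 h.

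**Figure D1:**
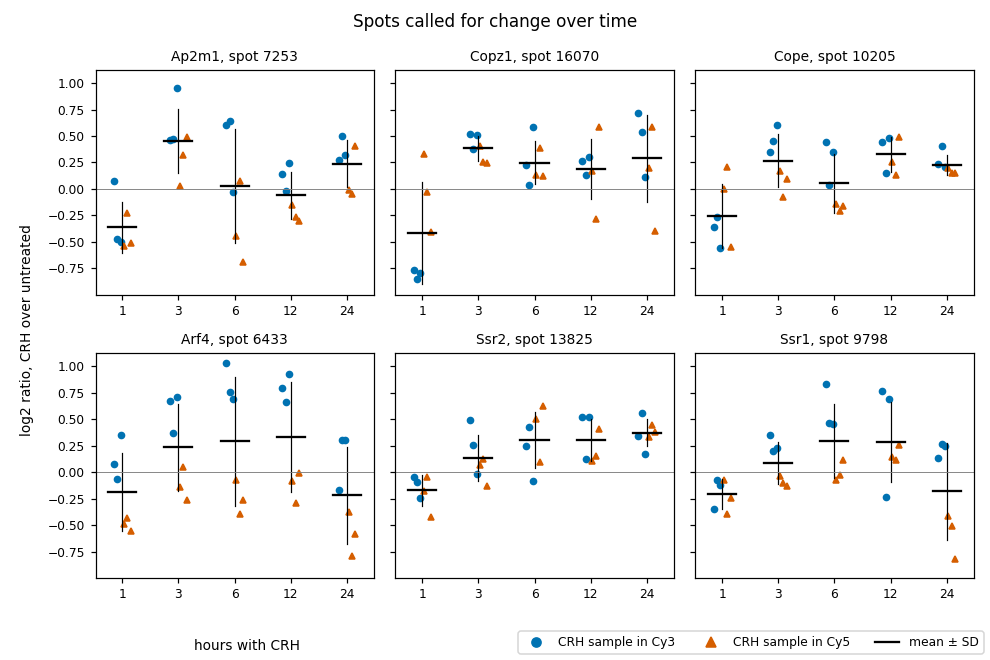
Log2 ratio (CRH-treated over untreated) of the 6 spots called for change over time, against hours with CRH. Circles and triangles are single arrays with the CRH sample in Cy3 or Cy5, and bars give the mean ± SD of 6 arrays. At 1 h the means lie between -0.42 and -0.17, and the Arf4 arrays separate by dye at every time point.

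Copz1 encodes the zeta subunit of coatomer. Its called spot had log2 ratios from -0.85 to 0.33 on the 6 arrays at 1 h (median -0.58), from 0.25 to 0.52 at 3 h (median 0.39), from 0.03 to 0.59 at 6 h (median 0.18), from -0.28 to 0.58 at 12 h (median 0.21) and from -0.40 to 0.72 at 24 h (median 0.36). All arrays were above 0 at 3 and 6 h and 5 of 6 were below 0 at 1 h, though the highest array at 1 h overlapped the later ones. The means were -0.42 ± 0.48, 0.38 ± 0.12, 0.25 ± 0.20, 0.19 ± 0.28 and 0.29 ± 0.41 (limma, adjusted p = 0.0329). At 1 h the mean was -0.80 on the arrays with CRH in Cy3 and -0.03 on those with CRH in Cy5. A further Copz1 spot, which was left out for its dye interaction, had means of -0.59, 0.18, 0.16, 0.13 and -0.06.

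Cope encodes the epsilon subunit of coatomer. Its ratios lay between -0.55 and 0.20 at 1 h (median -0.31), between -0.08 and 0.60 at 3 h (median 0.26), between -0.21 and 0.44 at 6 h (median -0.05), between 0.14 and 0.49 at 12 h (median 0.35) and between 0.15 and 0.41 at 24 h (median 0.20). At 12 and 24 h every array was above 0, whereas at 6 h 3 were above and 3 below. The means were -0.25, 0.27, 0.05, 0.33 and 0.23 (adjusted p = 0.039 by limma).

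Of the 9 measured coatomer spots, antisense spots aside, 6 had a mean below 0 at 1 h and 9 had one above 0 at 3 h, where 7030 and 6455 of all 14375 spots did so. Their median over the 5 time points was -0.25, 0.17, 0.07, 0.19 and 0.05. At 1 h it was -0.39 on the arrays with CRH in Cy3 and 0.0025 on those with CRH in Cy5, so that at this hour the median was low in the Cy3 orientation only. Both spots of Copa, the alpha subunit, had such a course, with means of -0.26, 0.31, 0.07, 0.33 and 0.05 for one and of -0.27, 0.17, 0.14, 0.21 and 0.04 for the other, and the first was past the interaction threshold for dye. Copg2 and Copz2, which encode further gamma and zeta forms, and Copb2, the beta-prime subunit, went differently. The mean of Copg2 was 0.45 at 1 h and -0.23 at 12 h, that of Copz2 was 0.13 and -0.25, and that of Copb2 was 0.23 at 1 h and -0.08 at 6 h. Copg2 and Copb2 were left out of the test for their dye interaction. The grouping of coatomer spots apart from the ARF genes was chosen after the values were seen.

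Arf4 is one of the ARF GTPases that act on Golgi membranes. Its measured spot had ratios from -0.56 to 0.35 at 1 h (median -0.25), from -0.26 to 0.71 at 3 h (median 0.21), from -0.40 to 1.03 at 6 h (median 0.31), from -0.29 to 0.93 at 12 h (median 0.33) and from -0.79 to 0.30 at 24 h (median -0.27). The arrays with CRH in Cy3 lay above those with CRH in Cy5 at every time point, with means of 0.83 and -0.25 at 6 h. The means over both orientations were -0.19, 0.23, 0.29, 0.33 and -0.22 (adjusted p = 0.00505 by limma). An interaction of time with dye did not pass the threshold in this spot. The other 2 Arf4 spots fell below the signal limit on some arrays. Arf1 and Arf2 had their lowest mean at 1 h (Arf1 -0.26 and -0.18 with 2 spots, Arf2 -0.23), and of these the Arf1 spot at -0.26 was left out of the test for its dye interaction while the others were not called. The 2 measured Arf6 spots had their highest mean at 1 h (0.18 and 0.11).

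Ssr2 encodes the beta subunit of the SSR complex. Its called spot had ratios from -0.42 to -0.04 at 1 h (median -0.14), from -0.13 to 0.49 at 3 h (median 0.10), from -0.08 to 0.63 at 6 h (median 0.34), from 0.10 to 0.52 at 12 h (median 0.28) and from 0.18 to 0.56 at 24 h (median 0.36). All 6 arrays were below 0 at 1 h and all 6 above 0 at 12 and at 24 h, so that the arrays of 1 h did not overlap with those of 12 or 24 h. The means were -0.17 ± 0.14, 0.13 ± 0.22, 0.30 ± 0.27, 0.31 ± 0.20 and 0.37 ± 0.13 (adjusted p = 0.0399 by limma). The other Ssr2 spot stayed between -0.07 and -0.01 in its 5 means.

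Ssr1, the alpha subunit, had 3 measured spots. The called one had ratios from -0.39 to -0.07 at 1 h (median -0.18), from -0.13 to 0.35 at 3 h (median 0.08), from -0.07 to 0.83 at 6 h (median 0.29), from -0.23 to 0.77 at 12 h (median 0.20) and from -0.82 to 0.27 at 24 h (median -0.14). Every array of 1 h was below 0, while at 24 h the arrays with CRH in Cy3 averaged 0.22 and those with CRH in Cy5 -0.58. The means were -0.21, 0.09, 0.30, 0.29 and -0.18 (adjusted p = 0.049 by limma). A second Ssr1 spot, with the highest mean over the 5 time points in the endoplasmic reticulum class (0.21 ± 0.08 SE), had -0.0041, 0.25, 0.41, 0.47 and -0.09 and an interaction with dye. The remaining Ssr1 spot stayed between -0.14 and 0.10.

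Ssr4, the delta subunit, had the lowest mean of the class at 1 h (-0.51) and then 0.32, 0.16, 0.25 and 0.21. Its arrays ran from -0.99 to 0.12 at 1 h and from 0.14 to 0.65 at 3 h, which do not overlap. It was left out of the test for its dye interaction, with a mean at 1 h of -0.80 with CRH in Cy3 and -0.22 with CRH in Cy5. All 6 measured SSR spots had a mean below 0 at 1 h, against 7030 of 14375 spots, and their median was -0.15, 0.11, 0.23, 0.27 and -0.00081 at the 5 time points. These spots stand for only 3 genes, and one Ssr1 spot was close to 0 at 1 h (-0.0041). The median of the SSR spots at 1 h was -0.19 on the arrays with CRH in Cy3 and -0.22 on those with CRH in Cy5. This grouping too was chosen after the values were seen. Sec61a1, the pore of the translocon, had means of -0.08, 0.08, 0.35, 0.22 and 0.19, with all 6 arrays above 0 at 6 h (from 0.06 to 0.53, median 0.37), and no call.

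**Figure D2:**
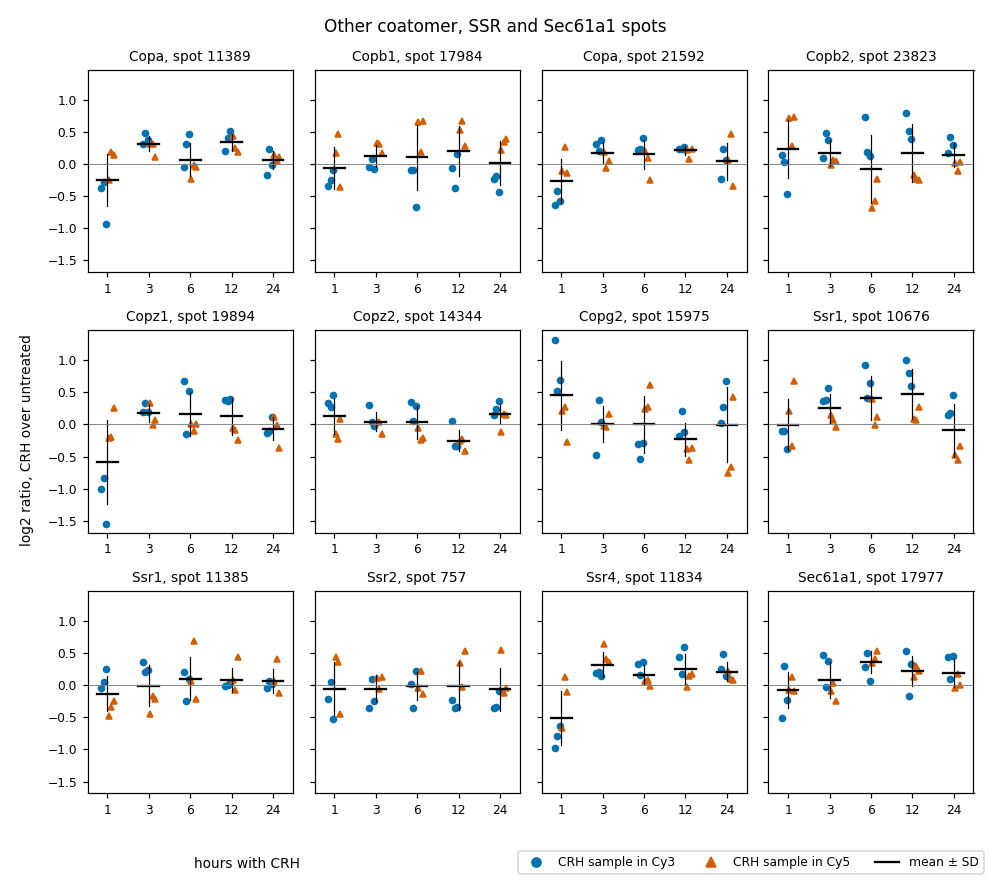
Log2 ratio (CRH-treated over untreated) of further coatomer, SSR and Sec61a1 spots, none called for change over time, against hours with CRH. Symbols as in the plot of called spots, with mean ± SD of 6 arrays. The Cy3 arrays carry the lowest values of Copz1 and Ssr4 at 1 h, where the means are -0.59 and -0.51, and Copg2 lies above 0 there (0.45).

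The number of calls depended on which hours entered. With single time points left out, a setting chosen after the values were seen, limma called 0 members without 1 h (20 at an unadjusted p under 0.05), 1 without 3 h, 7 without 6 h, 4 without 12 h and 3 without 24 h, and without 1 h 49 of all 12249 spots (0.4%) were called. With the day of quantification as a block, 0 of 127 members (11 at an unadjusted p under 0.05) and 17 of all spots (0.139%) were called by limma. Between 3 and 6 h, which were quantified on the same day, 0 members (8 at an unadjusted p under 0.05) and 2 of all spots were called. The 1 h arrays had a day of their own, so that 1 h and its day cannot be told apart. With the day as a block, 1 h is therefore not compared with any other hour. When arrays of one replicate number were left out at all time points, the count of members was 1 without number 1, 1 without number 2, 2 without number 3 and 9 without number 5. The counts without number 4 or 6 lay within 1 to 9. Numbers 1, 2 and 3 had CRH in Cy3 and numbers 4, 5 and 6 in Cy5, so each removal also unbalanced the dyes.

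Ap2m1 encodes the mu subunit of AP-2, the adaptor of clathrin at the plasma membrane. Its ratios lay between -0.54 and 0.07 at 1 h (median -0.49), between 0.03 and 0.95 at 3 h (median 0.47), between -0.69 and 0.64 at 6 h (median 0.02), between -0.31 and 0.25 at 12 h (median -0.09) and between -0.05 and 0.50 at 24 h (median 0.30). All 6 arrays were above 0 at 3 h and 5 of 6 below 0 at 1 h, with an overlap of 1 array. The means were -0.36 ± 0.24, 0.45 ± 0.30, 0.03 ± 0.54, -0.06 ± 0.22 and 0.24 ± 0.22 (adjusted p = 0.0102 by limma). Ap2a1, the alpha subunit of the same complex, ran the other way at 1 and 3 h (0.43 and -0.30), and at 3 h its mean was -1.24 with CRH in Cy3 and 0.64 with CRH in Cy5. Ap2b1 stayed between -0.12 and 0.12.

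Only 2 members passed a size rule of 1.5-fold with the same sign on 6 of 6 arrays, both at 24 h and both higher in CRH-treated cells. They are 1.36% of the 147 members, against 0.104% of all spots (15 of 14375) that were higher at 24 h. None was lower at 24 h (0.0487% of all spots), and none was past the rule at 1, 3, 6 or 12 h, where 0.0974%, 0.146%, 0.0348% and 0.125% of all spots were higher and 0.0974%, 0.0139%, 0% and 0.0139% lower. Counted over all time points the 2 stand against 0.563% of all spots. The rule is a description of these arrays and no test.

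Ap1g1, the gamma subunit of AP-1, which forms clathrin coats at the trans-Golgi network, was one of them. Its ratios at 24 h ran from 0.04 to 1.68 (median 0.82), with a mean of 0.84 ± 0.69. At the earlier time points the arrays lay on both sides of 0, from -0.72 to 0.48 at 1 h (median -0.02), from -0.03 to 0.76 at 3 h (median 0.13), from -0.31 to 0.79 at 6 h (median 0.11) and from -0.24 to 1.00 at 12 h (median 0.47). The mean at 24 h was 0.33 with CRH in Cy3 and 1.35 with CRH in Cy5. The means of -0.10, 0.22, 0.13, 0.37 and 0.84 gave a trend of 0.18 per doubling of time that passed no adjusted threshold (unadjusted p = 0.000481 in limma), and the mean of the 5 was 0.29 ± 0.10 (SE, adjusted p = 0.79 by limma). The change over time was not called (adjusted p = 0.0542). Of the other subunits of AP-1, Ap1b1 stayed between -0.10 and 0.12 and Ap1m2 between -0.16 and 0.14. Ap1s2 had the lowest mean of the adaptor class in one of its 3 spots (-0.14 ± 0.06 SE, adjusted p = 0.907 by limma), with arrays from -0.49 to 0.28 at 1 h, and the means of the other 2 lay between -0.21 and 0.07.

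Vat1 encodes a membrane protein first known from synaptic vesicles of the electric ray. Its spot past the size rule had ratios at 24 h from 0.11 to 1.15 (median 0.46), with a mean of 0.59 ± 0.45. The ratios were -0.76 to 0.94 at 1 h (median -0.03), -0.44 to 0.58 at 3 h (median 0.27), -0.32 to 0.40 at 6 h (median 0.02) and -0.03 to 0.89 at 12 h (median 0.26), so that only at 24 h were all arrays above 0. A further Vat1 spot did not share this, with -0.50 to 0.88 at 24 h (median 0.21, 3 of 6 arrays above 0), all 6 arrays above 0 at 3 h (mean 0.37 ± 0.14) and an interaction with dye. The signal of the 2 spots past the size rule was low on some arrays, from 269 units (Ap1g1) and 246 units (Vat1) upwards in untreated cells, and neither stands among the 130 members with ratios in the authors' deposited table.

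**Figure D3:**
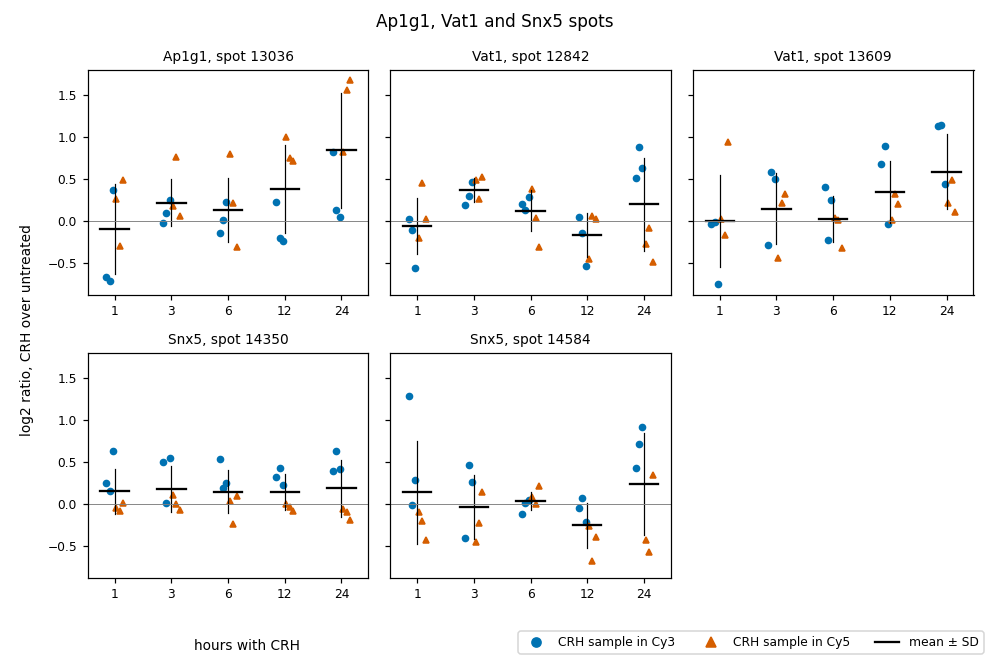
Log2 ratio (CRH-treated over untreated) of the Ap1g1, Vat1 and Snx5 spots against hours with CRH. Circles and triangles are single arrays with CRH in Cy3 or Cy5, and bars give the mean ± SD of 6 arrays. Ap1g1 (mean 0.84) and Vat1 spot 13609 (0.59) have all arrays above 0 at 24 h, while Vat1 spot 12842 has 3 of 6.

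The Rab GTPases and their partners were the largest class, with 41 measured spots of 63, and none was called in any test. Of the 41, 5 were left out of the test of change over time for their dye interaction, Rab27a among them, and 36 were tested. The median of the class stayed between -0.01 and 0.03 at the 5 time points. The highest mean of the 5 was that of one spot of Rab11b, a GTPase of recycling endosomes (0.18 ± 0.06 SE, adjusted p = 0.876 by limma). Its arrays ran from -0.49 to 0.39 at 1 h, from 0.08 to 0.72 at 3 h, from -0.11 to 0.53 at 6 h, from -0.30 to 0.77 at 12 h and from 0.01 to 0.64 at 24 h, so that all were above 0 at 3 and 24 h only. The other Rab11b spot averaged -0.0029. The lowest mean was that of Rabl3 (-0.09 ± 0.06 SE), with means from -0.19 at 1 h to 0.01 at 3 h. The Rab3 GTPases of secretory granules, Rab3a, Rab3b and Rab3c, lay between -0.25 and 0.24, and Rab27a, another GTPase of secretory granules, between -0.05 and 0.17. Rab3a reached the upper limit of the scanner on 13 arrays and Rab23 on 9, which bounds their ratios there.

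In the COPI and ARF class the lowest mean of the 5 belonged to one spot of Arf3 (-0.21 ± 0.07 SE, adjusted p = 0.79 by limma). Its arrays ran from -1.24 to 0.19 at 1 h, from -0.32 to 0.39 at 3 h, from -0.56 to 0.19 at 6 h, from -0.73 to 0.37 at 12 h and from -0.85 to 0.77 at 24 h, and overlapped 0 throughout. Another Arf3 spot averaged 0.02. In the endoplasmic reticulum class the lowest mean was that of one of the 4 spots named signal recognition particle (-0.17 ± 0.07 SE, adjusted p = 0.907), which had -0.39, -0.27, -0.02, -0.20 and 0.04. The other 3 of that name averaged between 0.04 and 0.16. No COPII spot that was tested was called. Sec23b, which was left out of the change-over-time test for its dye interaction, had its highest mean at 3 h (0.42).

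Among the syntaxins and vesicle proteins, Stx8, a SNARE of endosomes, had the lowest mean (-0.13 ± 0.07 SE, adjusted p = 0.931 by limma), with -0.37 at 1 h and 0.17 at 24 h. Vamp2, a SNARE of secretory granules, had 5 means between -0.16 and 0.15. In the Golgi class the highest and the lowest mean came from the same gene, Acbd3, a Golgi scaffold protein, whose 3 spots averaged 0.17, 0.08 and -0.12 and so did not share a direction. Snx5, a subunit of the endosomal sorting complex with retromer, had an even course, with means of 0.15, 0.18, 0.14, 0.14 and 0.19 for one spot (0.16 ± 0.05 SE, adjusted p = 0.79 by limma). In that spot the arrays with CRH in Cy3 averaged 0.32 to 0.49 and those with CRH in Cy5 -0.11 to 0.01, and the other Snx5 spot averaged 0.02. Snx17, which returns receptors to the cell surface, had the lowest mean of the sorting nexins (-0.12 ± 0.06 SE).

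**Figure D4:**
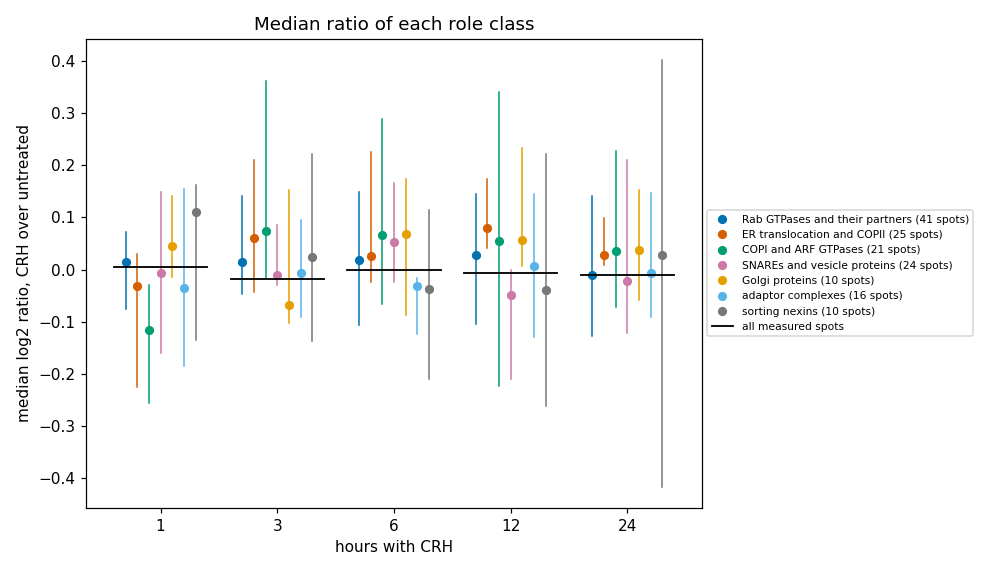
Median log2 ratio (CRH-treated over untreated) of the measured spots of each role class against hours with CRH. Points are medians of the spot means, vertical lines the range of the class median over the 6 arrays, and black bars the median of all measured spots. The COPI and ARF class lies at -0.12 at 1 h and at 0.04 to 0.07 later, with array medians from -0.22 to 0.34 at 12 h.

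Over whole classes the shifts were small. The COPI and ARF class (21 spots) had medians of -0.12, 0.07, 0.07, 0.06 and 0.04, and the endoplasmic reticulum class (25 spots) -0.03, 0.06, 0.03, 0.08 and 0.03, where all spots had medians between -0.02 and 0.0045. With CRH in Cy3 the COPI and ARF medians were -0.11, 0.31, 0.24, 0.23 and 0.14. With CRH in Cy5 they were -0.08, 0.03, -0.06, -0.18 and 0.03, so that the orientations differed in sign at 6 and 12 h. The array medians of this class at 12 h ran from -0.22 to 0.34. The name rule places Scamp2, Scamp3, Scamp5, 2 spots of the exocyst subunit Sec8, Sec14l2 and Scgb3a1 in the endoplasmic reticulum class, and the 18 spots left without them had medians of -0.13, 0.07, 0.12, 0.12 and 0.05. The 18 COPI and ARF spots that are not antisense had -0.19, 0.11, 0.05, 0.12 and 0.04, and both divisions were chosen after the values were seen. At 1 h all 6 array medians of the COPI and ARF class of 21 spots were below 0 (from -0.26 to -0.03). Without the antisense spots they ran from -0.26 to 0.02 and so were not all below 0. At 12 h all 6 of the endoplasmic reticulum class of 25 spots were above 0 (from 0.04 to 0.17), and those of its 18 spots ran from 0.0048 to 0.35. The lowest of the 5 means fell at 1 h in 11 of 21 COPI and ARF spots (52.4%), 11 of 25 of the endoplasmic reticulum class (44%) and 11 of 41 Rab spots (26.8%), against 25.1% of all spots. It did so in 7 of 16 adaptor spots (43.8%) and 4 of 10 sorting nexin spots (40%). Among syntaxin and vesicle spots it was 7 of 24 (29.2%), and among Golgi spots 1 of 10 (10%). Over the 147 members the count was 52 (35.4%).

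**Figure D5:**
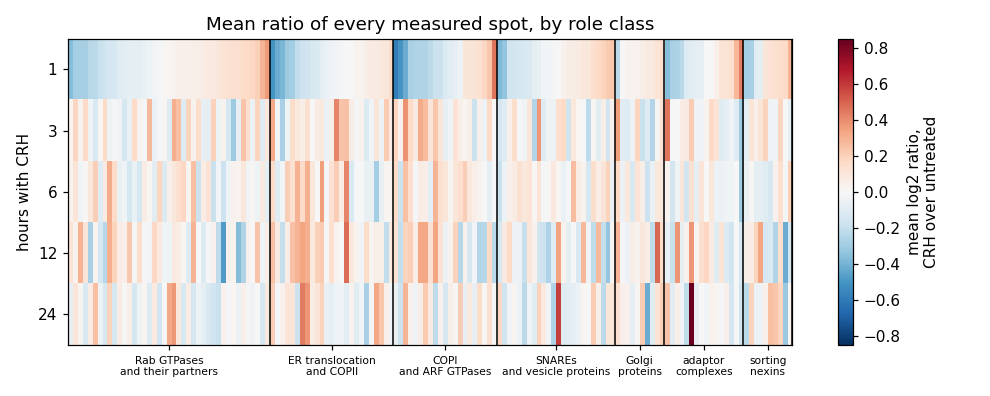
Mean log2 ratio (CRH-treated over untreated, 6 arrays) of each of the 147 measured spots, in columns grouped by role class and ordered within a class by the 1 h mean, with hours with CRH in rows. Red is higher and blue lower in CRH-treated cells, and values run from -0.59 (Copz1, 1 h) to 0.84 (Ap1g1, 24 h).

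Without any rule of size, few members had all 6 arrays of a time point on one side of 0. At 1 h 1 was above (2.85% of all spots) and 6 were below 0 (3.32%), namely spots of Ssr1, Ssr2, Sec61a2, Arf1, Rab9 and Snx17. At 3 h 9 were above (4.63% of all spots) and 2 below (2.33%), and the 9 were spots of Copa, Copz1, Ssr4, Sec23b, Gosr2, Ap2m1, Vat1, Scamp3 and Rab11b. At 6 h 3 were above, of Copz1, Sec61a1 and Srprb (1.29% of all spots), and 1 below (1.41%). At 12 h 8 were above (2.6% of all spots), among them both Copa spots, Cope, Ssr1, Ssr2 and Gosr2, and 4 below (1.96%). At 24 h 9 were above (2.66% of all spots), among them Cope, Ssr2, Ssr4, Ap1g1 and Vat1, and 2 below (1.95%), Vamp8 and Snx17. The mean was above 0 at all 5 time points in 7 members (3.05% of all spots), 2 of them spots of Acbd3 and the others of Ap3b2, Rabggta, Rab11b, Gga3 and Snx5, and below 0 at all 5 in 2 (3.69% of all spots), spots of Ssr2 and Ap1s2.

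A list of other secretory pathway genes (clathrin, synaptotagmins, complexins, SNAPs, vacuolar sorting proteins and the like) had 84 spots, of which 58 were measured. There 2 spots passed the test of a CRH effect, both of Syt4, a synaptotagmin that is found on secretory vesicles, with means over the 5 time points of 0.59 and 0.55 (adjusted p = 0.00237 each by limma, against 0.0487% of all spots called higher). The first Syt4 spot had 0.43, 0.69, 0.66, 0.79 and 0.37 and the second 0.69, 0.64, 0.43, 0.67 and 0.34, while another Syt4 spot stayed between -0.07 and 0.05. A change over time was called in 3 of the 47 spots tested (3.11% of all spots), 1 each of Surf4, a cargo receptor of the endoplasmic reticulum, the SNARE-recycling factor alpha-SNAP and Syt13. Surf4 had -0.50, 0.16, 0.14, 0.34 and 0.34 (adjusted p = 0.00693), alpha-SNAP -0.20, 0.43, 0.20, -0.01 and 0.26 (adjusted p = 0.0157) and Syt13 0.37, 0.36, 0.06, -0.25 and -0.03 (adjusted p = 0.022, all by limma). Another spot of each of these 3 genes was not called. That of alpha-SNAP ran the other way at 1 and 3 h (0.07 and -0.33). The means of the other Syt13 spot lay between -0.06 and 0.12, and those of the other Surf4 spot between -0.14 and 0.07. Archain 1, the delta subunit of coatomer, had 2 spots, one with -0.14, 0.17, 0.20, 0.28 and -0.16 and an interaction with dye and the other between -0.06 and 0.08.

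The 75 members below the signal limit on at least 1 array include 3 that were below it on all 30. Without the limit, only Arf5, of these 75, passed the 1.5-fold size rule, with a mean of 0.77 at 24 h (from 0.20 to 1.56 on the 6 arrays), where 25 of its 30 arrays were above the limit. In that setting Vat1 spot 13609 fell just short of the rule, with a mean of 0.583 at 24 h where 1.5-fold is 0.585. Its mean in the main setting, 0.586, was just past it.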

How the data were processed

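Total RNA of AtT-20 cells was amplified, labelled and hybridised to spotted cDNA arrays. Per the labels and methods, the authors read spot intensity by fixed circle (QuantArray), and the deposited scanner files hold intensity of both channels. The deposited series table holds the authors' log2 ratios (r = 0.979 to 0.992 with those computed here, medians -0.014 to 0.016), already directed as CRH over untreated, and served as an alternative. Here, without background subtraction, spots at or below the 10th percentile in any channel were removed, 14375 remained, and log2 ratios were normalized by print-tip loess (48 blocks, span 0.75, 4 iterations). Tests used limma 3.58.1 in R 4.3.3 on the 5 dye-balanced averages (CRH effect, trend) or on 30 arrays (time with dye), with a linear model for the interaction. The members and lists were chosen with earlier results of these data known. Spots were named in the text if called, if among the 10 with the widest range of those called over time, if past the 1.5-fold rule (up to 3 per direction and time point), or if highest or lowest in their class by mean, and other spots set beside them were chosen after their values were seen. The study's candidate table named no member by the deposited spot names, though it holds Snx11 and Rabif, whose spots carry other names. The tests of the CRH effect, the change over time and the interaction, and the size rule, were tried on simulated data. For the interaction none was planted, and the trend was not tried. Alternatives were normexp (offset 50), no removal, 1 loess curve, each replicate number or time point left out, a day block, a replicate block, a robust prior, a random block, and 1.3-fold. Same-numbered arrays did not deviate together (0 of 60 pairs over r = 0.1). No depth applies to intensity. The number of arrays limits the technical precision of a ratio only. Statements on CRH rest on the 5 time points, since the arrays of each are technical replicates.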

Additional observations from a re-analysis of the deposited data

Results flagged for a closer look

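The change between time points was called by limma (adjusted p over all spots tested) in Arf4 (0.00505), Ap2m1 (0.0102), Copz1 (0.0329), Cope (0.039), Ssr2 (0.0399) and Ssr1 (0.049). The test sets the hours against the spread of technical replicates. With the day of quantification as a block it called 0 of them (11 of 127 members at an unadjusted p under 0.05). That block cannot compare 1 h, which had a day of its own, with the other hours, so the lost calls decide nothing about 1 h. Of 95 groups of 6 arrays (19 named spots at 5 time points), 4 had an array apart from the other 5 by Dixon's test, and chance flags about 1 group in 20. Cope at 24 h had 0.409 on replicate 2, with 0.15 to 0.24 on the other 5. Ap1g1 at 3 h had 0.755 on replicate 5, with -0.03 to 0.24 on the others. Acbd3 (spot 9391) at 24 h had -0.482 on replicate 3, with 0.17 to 0.38 on the others. Ap1s2 at 1 h had 0.276 on replicate 4, with -0.49 to -0.24 on the others.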

How the results depend on the processing

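The count of members with a CRH effect or trend was 0 under every alternative run (limma; 12 and 20 members at an unadjusted p under 0.05). The 6 members called for change over time became 2 without removal of dim spots, 2 with 1 loess curve per array, 4 in the deposited ratios (Cope and Ssr1 lost, adjusted p = 0.069 and 0.0925), 10 at an unadjusted p under 0.01, 11 with spots of a dye interaction kept, 0 with the day as a block (limma, 11 at an unadjusted p under 0.05), 0 for 3 h against 6 h (8 at an unadjusted p under 0.05), and 2 with the replicate block. The day block left no comparison of 1 h with the other hours, since 1 h had a day of its own. Without single replicate numbers the count was 1 to 9, and without 1, 3, 6, 12 or 24 h it was 0, 1, 7, 4 and 3, where fewer arrays entered. The 20 members with a dye interaction were 11 to 17 without a replicate number. The 2 members past the 1.5-fold rule were 1 with 1 loess curve, 0 in the deposited ratios, which hold neither spot, 9 at 1.3-fold, 1 with spots of one name averaged, and 1 to 3 without a replicate number. Without removal of dim spots the count stayed at 2, but Vat1 fell just short and Arf5 passed. Over 18 to 20 alternatives each, Arf4 was still called in 15, Ap2m1 in 13, Copz1 in 9, Ssr2 in 6, Cope in 5 and Ssr1 in 2. Of 360 class medians under alternatives, 359 moved by less than the SD of the array medians, and the Golgi median at 1 h was -0.0209 to 0.0838 without a replicate number. The replicate block was fitted for change over time only, and 7 of 30 arrays correlated best with their own number. Otherwise the cause of a lost call was not tested.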
